A study of Mus musculus with 3 samples.

Results

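The genes described here encode 8 isoforms of protein kinase C: Prkca, Prkcb, Prkcd, Prkce, Prkch, Prkci, Prkcq and Prkcz. They were taken by name from a table of read counts for 17857 genes, and all 8 were present. The table comes from bulk RNA sequencing of 1 sorted population of C57BL/6J mice. The mice carried B16F10 tumours, a melanoma line, implanted on both sides in the upper thigh, and received no treatment. At day 14 the draining lymph nodes were pooled, and cells that displayed Ly6C and c-kit and lacked CD11c were sorted as a precursor population. The experiment was done 3 times, which gave 3 libraries (replicates 1, 2 and 3, n = 3) made from 8 ng of total RNA each. There was no control population, and neither the number, the sex nor the age of the mice was given in the sources used here, so every p-value reflects no more than the variation among 3 libraries, which may be technical.

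Protein kinases C are serine/threonine kinases that relay lipid signals at membranes. Phospholipase C makes diacylglycerol and releases calcium. Conventional isoforms (alpha and beta here) respond to diacylglycerol and calcium, the isoforms delta, epsilon, eta and theta to diacylglycerol without calcium (called diacylglycerol-only here), and atypical isoforms (iota and zeta) to neither. In lymphocytes the isoform theta carries T cell receptor signals, and the isoform beta carries B cell receptor signals downstream of BTK and phospholipase C gamma 2, to NF-kappaB. The title of the series names BTK and the enzyme IDO as brakes on dendritic cell differentiation in tumours.

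The libraries held 9077195, 13885509 and 13861430 counts. Levels are normalised read counts in CPM (counts scaled to a common library total), and CPM per kilobase of the gene length in the deposited table where genes are set side by side, as mean ± SD over the 3 libraries. The sorted population carried T cell genes at high levels, with a summed level of 3737 to 4707 CPM per library for a T cell list. All 10 members of this list lay above 50 CPM, where 19.9% of the 15490 genes tested did. Of the genes behind the sort, Kit had 9.83, 5.35 and 5.92 CPM in replicates 1, 2 and 3, Ly6c2 had 11.5, 121 and 41.2 CPM, and Itgax, which encodes CD11c, had 26.9, 43.2 and 24.0 CPM. Cd34, a progenitor marker, had no count in replicate 2. The stem and progenitor list of 9 genes that holds it summed to 125, 235 and 149 CPM in replicates 1, 2 and 3. Lists for other cells differed between libraries. Erythroid genes summed to 4357, 67.1 and 312 CPM, macrophage genes to 1306, 107 and 267 CPM, NK cell genes to 108, 821 and 339 CPM, and neutrophil genes to 232, 111 and 1128 CPM in replicates 1, 2 and 3. In bulk libraries, fewer cells of a type and less RNA per cell cannot be told apart, and which of the sorted cells held each isoform was not tested.

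Per kilobase of the deposited lengths, the family was led by the diacylglycerol-only isoforms theta and eta. Prkcq stood at 147 ± 34.1 CPM per kilobase, followed by Prkch (81.5 ± 26.3), Prkcb (43.7 ± 11.5), Prkcd (35.8 ± 12.4) and Prkca (15.3 ± 2.06). Prkce (6.77 ± 0.482), Prkci (5.77 ± 0.733) and Prkcz (1.74 ± 0.459) were lowest. With the exon lengths of GENCODE M21, Prkcb (50.4 ± 13.2 CPM per kilobase) stood above Prkch (35.7 ± 11.5). The family spanned 84.0-fold from Prkcq to Prkcz, as a mean of within-library log2 ratios, and 54.0-fold with the exon lengths of GENCODE M21. The median member was read at 25.5 CPM per kilobase (16.1 with the GENCODE lengths), against 5.50 for the 15490 genes tested with deposited lengths. Levels were tested by edgeR's quasi-likelihood method against 3 fixed references, namely 1 CPM, 50 CPM and 10 CPM per kilobase, with p adjusted over all genes tested.

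**Figure D1:**
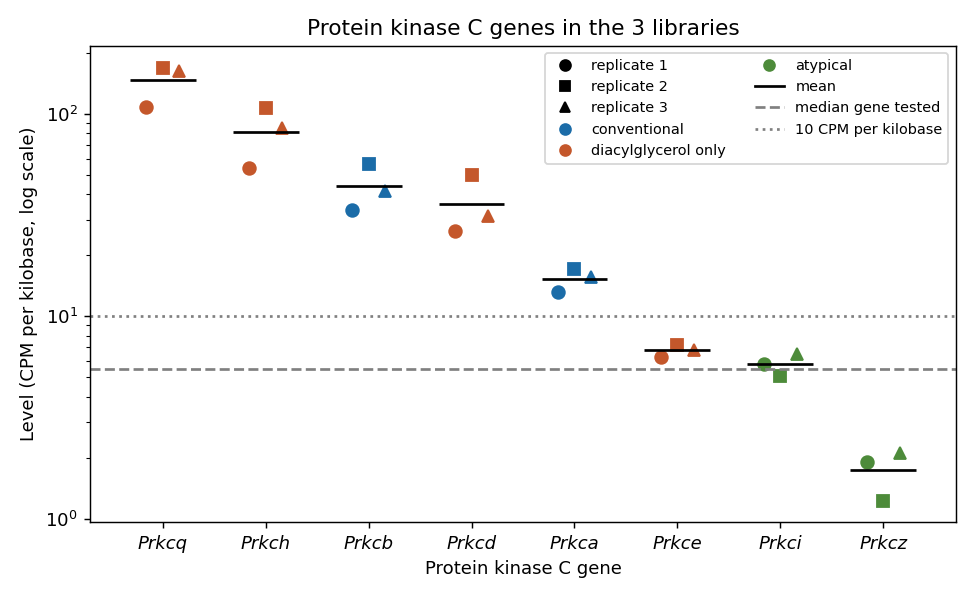
Level of each protein kinase C gene in each library, in CPM per kilobase on a log axis, with symbols for replicates, bars for means and colours for the conventional, diacylglycerol-only and atypical classes. Prkcq was highest and Prkcz lowest in each of the 3 libraries, and the dashed line marks the median of all genes tested (5.50 CPM per kilobase).

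All 8 members lay above 1 CPM, a call that 68.6% of genes tested shared. Called below it were 0.0% of genes tested (0 genes by edgeR, 0 at an unadjusted p under 0.05, 0 by DESeq2 and 0 by limma). Genes with a summed count under 10, the least read, were left out of this test. With no filter the number was also 0, so the test separated no little-read gene from 1 CPM. It does not show that all genes lay above that level. Above 50 CPM lay 5 members (Prkca, Prkcb, Prkcd, Prkch and Prkcq), where 19.9% of genes tested did. Below it lay Prkci and Prkcz, as did 66.7% of genes tested, and Prkce was not separated from it (adjusted p = 0.163). Against 10 CPM per kilobase the same 5 members lay above, as did 30.9% of genes tested, and Prkce, Prkci and Prkcz lay below, as did 37.4%. The members' counts against 1 CPM and 50 CPM were the same without each replicate in turn, and against 10 CPM per kilobase they were 4 above and 2 below without replicate 3. Over all genes tested, those below 50 CPM went from 10336 to 5513 and those below 10 CPM per kilobase from 5795 to 2249 without replicate 3.

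Prkcq encodes protein kinase C theta, the isoform that gathers at the contact of T cells with antigen-presenting cells. Its levels in replicates 1, 2 and 3 were 355, 560 and 541 CPM, from 3364, 7847 and 7123 counts. Replicate 1 was low and replicates 2 and 3 lay close together. Its mean of 485 ± 113 CPM ranked at the 98.7th percentile of genes tested, and it lay above 50 CPM (edgeR adjusted p = 3.86e-07) and above 10 CPM per kilobase (4.92e-08). The T cell list summed to 3737, 4570 and 4707 CPM. Of its 10 genes, 4 were highest in replicate 2 and 6 in replicate 3, against 4944 and 3520 of the 15490 genes tested. The part of this list in the level of Prkcq was not tested. Prkcq is Entrez gene 18761 and spans chromosome 2, 11171905 to 11301226, on the plus strand of GRCm38.

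Prkch encodes protein kinase C eta, an isoform of lymphocytes and epithelia. Its levels were 178, 350 and 279 CPM in replicates 1, 2 and 3 (269 ± 86.7). Replicate 2 stood 1.97-fold above replicate 1, the widest ratio in the family. It lay above 50 CPM (edgeR adjusted p = 5.26e-06) and at the 96.4th percentile of genes tested per kilobase. Prkch is Entrez gene 18755, chromosome 12, 73584796 to 73778185, plus strand.

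Prkcd encodes protein kinase C delta, known for restraining B cells and for its part in cell death. Replicates 1, 2 and 3 gave 73.2, 138 and 86.4 CPM (99.3 ± 34.4), so replicate 2 stood apart and replicates 1 and 3 lay near each other. It passed against 50 CPM (edgeR adjusted p = 0.00145). The monocyte list summed to 804, 1651 and 503 CPM. Of its 9 genes, 6 were highest in replicate 2 and 3 in replicate 1, against 4944 and 7026 of the 15490 genes tested. Of the same 9 genes, 7 were lowest in replicate 3, while Prkcd was lowest in replicate 1. The part of this list in the level of Prkcd was not tested. Prkcd is Entrez gene 18753, chromosome 14, 30595353 to 30626414, minus strand.

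Prkce encodes protein kinase C epsilon, an isoform used by macrophages among other cells. Its levels of 39.2, 45.2 and 42.6 CPM were the most even of the family, with a highest library 1.15-fold above the lowest. It lay below 10 CPM per kilobase (edgeR adjusted p = 0.0148), a call lost without replicate 3 (0.138). The macrophage list summed to 1306, 107 and 267 CPM in replicates 1, 2 and 3, and its part in the level of Prkce was not tested. Prkce is Entrez gene 18754, chromosome 17, 86167785 to 86657919, plus strand. Its exons share 472 bases with AC154542.1, a gene model on the same strand in GENCODE M21, so some of its reads may be uncertain.

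Among the conventional isoforms, Prkcb encodes protein kinase C beta, which B cells need for NF-kappaB signalling and which T and myeloid cells also express. Its levels were 296, 495 and 366 CPM for replicates 1, 2 and 3 (385.8 ± 101.3), from 2798, 6946 and 4823 counts. Replicate 2 was highest and replicate 1 lowest. It lay above 50 CPM (edgeR adjusted p = 7.88e-07) and above 10 CPM per kilobase (5.86e-06). All 10 genes of the B cell list, and 7026 of the 15490 genes tested, were highest in replicate 1, where Prkcb was lowest. The B cell list summed to 460, 181 and 243 CPM, and its part in the level of Prkcb was not tested. Prkcb is Entrez gene 18751, chromosome 7, 122289104 to 122634402, plus strand.

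Because Prkcb was the best-read conventional isoform, the 250 bases before the start that the RefSeq promoter table lists are shown (GRCm38.p6, chr7:122288875-122289124, plus strand; the last 21 bases lie inside the gene span given above), with capitals for the octamer ATGCAAAT, a site for POU factors of lymphocytes.
Prkcb: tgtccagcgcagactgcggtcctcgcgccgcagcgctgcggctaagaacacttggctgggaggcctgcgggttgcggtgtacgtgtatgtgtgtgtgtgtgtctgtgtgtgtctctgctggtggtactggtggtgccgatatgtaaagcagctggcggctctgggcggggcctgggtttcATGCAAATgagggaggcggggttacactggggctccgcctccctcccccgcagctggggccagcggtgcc
Motifs of ETS, RUNX and AP-1 factors, the CCAAT box and the TATA box were searched as well, in the windows of 6 members. The Prkcb window held none of these. A Prkcd window held 1 TATA box (found in 12.4% of all windows) and a Prkcz window 2 RUNX motifs (14.0%). The octamer, searched on both strands and chosen after the sequence was seen, occurred in 1.60% of 32851 such windows. The match is a description of the letters and not of a bound site.

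Prkca encodes protein kinase C alpha, the widely expressed conventional isoform. With 110, 144 and 131 CPM in replicates 1, 2 and 3 (128 ± 17.2), it lay above 50 CPM (edgeR adjusted p = 7.21e-05). The libraries lay within 1.31-fold of each other. Above 10 CPM per kilobase its call (0.00646) was lost without replicate 3 (0.0575). Prkca is Entrez gene 18750, chromosome 11, 107933387 to 108343888, minus strand, and shares 30 exon bases with Apoh on the opposite strand.

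The atypical isoforms, which build cell polarity with PAR proteins, were the least read. Prkci, encoding protein kinase C iota, had 25.8, 22.5 and 29.01 CPM in replicates 1, 2 and 3 (25.8 ± 3.27) and lay below 50 CPM (edgeR adjusted p = 0.00226). Prkcz, encoding protein kinase C zeta, had 8.77, 5.63 and 9.65 CPM (8.02 ± 2.11), from 83, 79 and 127 counts, and lay below 50 CPM (4.43e-04). For both genes replicate 2 was lowest and replicate 3 highest. Prkci is Entrez gene 18759, chromosome 3, 30995742 to 31052740, plus strand, and Prkcz is Entrez gene 18762, chromosome 4, 155260118 to 155361428, minus strand.

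As the least-read member, Prkcz is shown for contrast with Prkcb, by the 250 bases before the most upstream of its 3 starts in the RefSeq table (GRCm38.p6, chr4:155361429-155361678, minus strand). Capitals mark the CCAAT box, here as its reverse complement ATTGG.
Prkcz: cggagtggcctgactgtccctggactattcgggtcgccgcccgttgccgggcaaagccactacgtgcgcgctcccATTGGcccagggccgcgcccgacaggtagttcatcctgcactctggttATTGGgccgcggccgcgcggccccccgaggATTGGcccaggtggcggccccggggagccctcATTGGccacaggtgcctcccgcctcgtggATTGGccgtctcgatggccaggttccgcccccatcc
This window held 5 such matches and 25 CpG, while the windows of the other 2 Prkcz starts, which lie inside the gene, held 0 matches and 10 and 7 CpG. CpG numbered 17 in the Prkcb window, 39 for Prkca, 30 for Prkcq, 17 for Prkci, and 1 and 18 for the windows of Prkcd. The median was 6 over all windows. The Prkcq window and the Prkcd window with 1 CpG lay wholly inside the gene span, as did 206 of the 250 bases of the other Prkcd window. A CCAAT box on either strand occurred in 33.9% of windows, and the windows of Prkcb, Prkcq, Prkca, Prkci and Prkcd held none.

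Within libraries, differences were taken between members as log2 CPM per kilobase. The order Prkcq, Prkch, Prkcb, Prkcd, Prkca, Prkce, Prkci, Prkcz held in each of the 3 libraries, so all 28 pairs had 1 sign throughout. Each gave an exact permutation p = 0.25 (two-sided sign flips, adjusted p = 0.25 over the 28 pairs), the smallest that 3 libraries allow. Prkcq exceeded Prkch by 0.87 ± 0.18 log2 units (1.83-fold), and Prkch exceeded Prkcb by 0.88 ± 0.18. Prkcb exceeded Prkcd by 0.31 ± 0.12 (1.24-fold), and Prkce exceeded Prkci by 0.24 ± 0.25, a difference smaller than its SD. Prkcd stood 2.27-fold above Prkca, Prkca 2.25-fold above Prkce, and Prkci 3.36-fold above Prkcz.

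The order depends on the gene length. With the GENCODE lengths, which are up to 2.28 times the deposited ones (Prkch), Prkcb stood above Prkch (Prkch minus Prkcb, -0.52 log2 units). Prkcb then stood 2.86-fold above Prkcd, and Prkcd minus Prkca was 0.29 ± 0.31 log2 units (1.22-fold), smaller than its SD. Without length scaling Prkcb also stood above Prkch and was 3.94-fold above Prkcd, Prkca stood above Prkcd, and Prkce was 1.65-fold above Prkci. Prkcq remained highest and Prkcz lowest under each of these lengths.

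As shares of the summed CPM per kilobase of the 8 genes, Prkcq took 43.3%, 41.04% and 46.4% in replicates 1, 2 and 3, and Prkch 21.7%, 25.8% and 24.1%. The 4 diacylglycerol-only isoforms together took 80.04 ± 1.68%, the 2 conventional ones 17.6 ± 1.28% and the 2 atypical ones 2.36 ± 0.79%. With the GENCODE lengths the conventional share was 32.7 ± 1.82% and the diacylglycerol-only share 64.2 ± 2.13%. The diacylglycerol-only isoforms took the largest share in every library under either length.

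**Figure D2:**
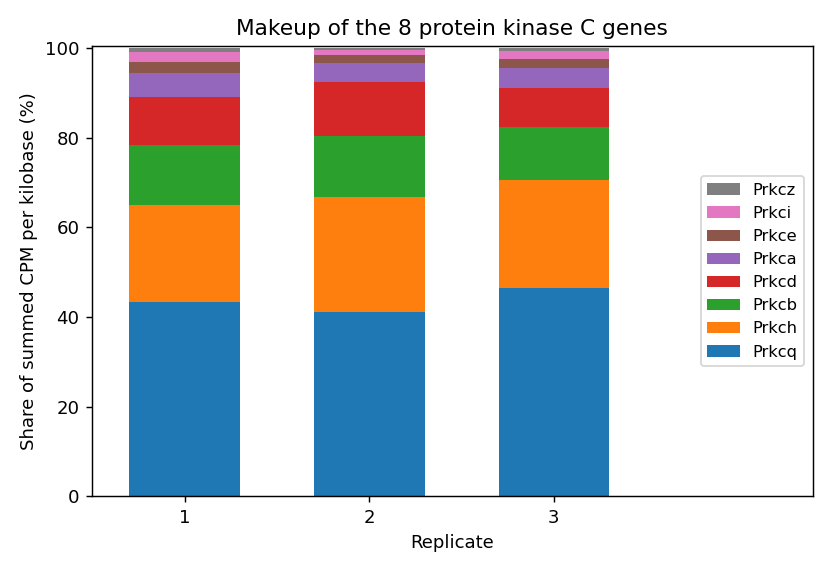
Share of each gene in the summed CPM per kilobase of the 8 protein kinase C genes, in percent, 1 bar per library. With the deposited lengths shown, Prkcq and Prkch formed the 2 largest parts of each bar, and Prkci and Prkcz together took 3.10% or less. With the GENCODE lengths the mean share was 25.35% for Prkcb and 17.7% for Prkch.

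The order of the libraries was not the same for all members, and whether it differs between classes was not tested. Some gaps were narrow, with a highest library 1.15-fold above the lowest for Prkce, 1.29-fold for Prkci and 1.71-fold for Prkcz. The 6 conventional and diacylglycerol-only members were highest in replicate 2 and lowest in replicate 1, as were 23.3% of genes tested and 35.6% of the 9590 genes with a mean of at least 5 CPM. Prkci and Prkcz were highest in replicate 3 and lowest in replicate 2, as were 10.9% of genes tested and 13.1% of the genes of at least 5 CPM. With total counts in place of TMM factors Prkce was no longer lowest in replicate 1 (40.9, 45.7 and 40.5 CPM). The other 7 members kept their highest and lowest library. For Prkcz (9.14, 5.69 and 9.16 CPM) replicates 1 and 3 were then almost equal, and for Prkci (26.9, 22.7 and 27.6 CPM) they were close. The SD of log2 CPM ran from 0.10 (Prkce) to 0.50 (Prkch), and 5 of the 8 members lay above 0.28, the median of genes of at least 5 CPM. The CD8 and NK lists shared the order of the conventional and diacylglycerol-only isoforms but with wider swings, with list medians 2.36 and 1.42 log2 units above the gene mean in replicate 2, against 0.53 for Prkcd, the highest of the isoforms there. Erythroid and macrophage lists, and the B cell list, were highest in replicate 1. The part of these lists in the levels of the isoforms was not tested.

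**Figure D3:**
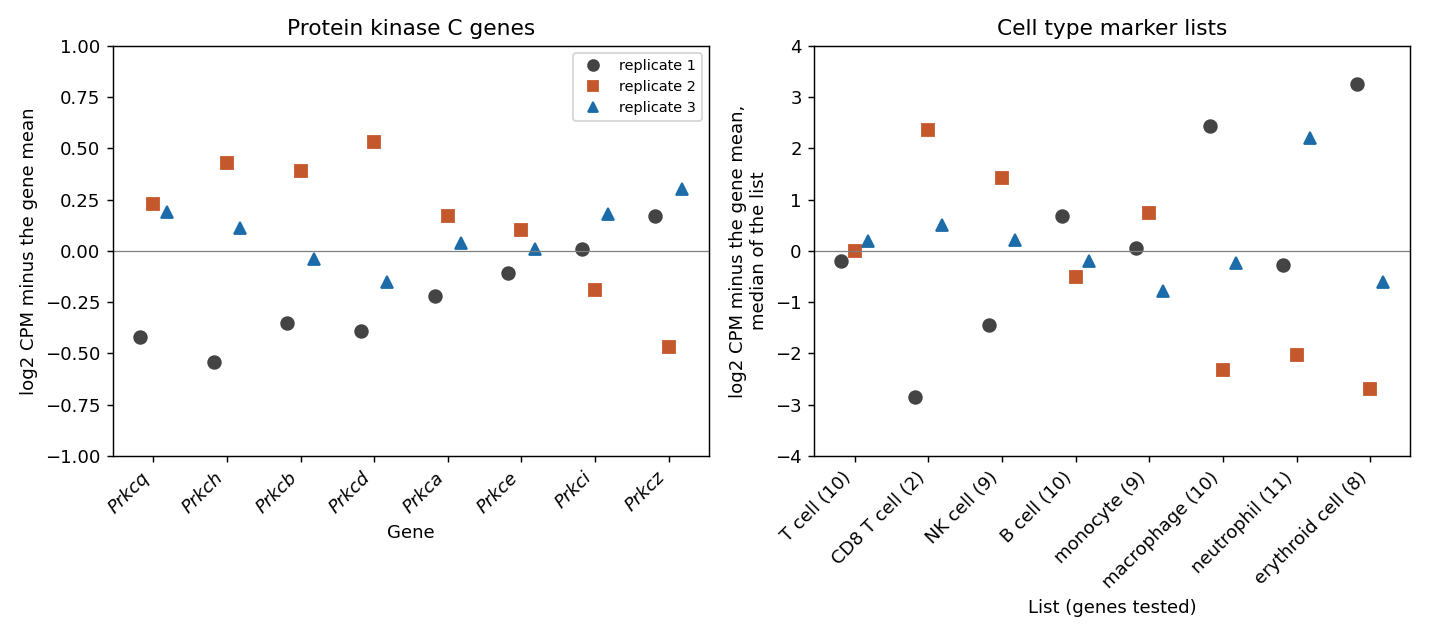
Level of each library relative to the mean of the gene in log2 CPM, for the 8 isoforms (left) and as the median of marker lists (right, number of genes tested in brackets), with symbols for replicates. Replicate 2 was highest for Prkcq, Prkch, Prkcb, Prkcd, Prkca and Prkce and lowest for Prkci and Prkcz, and the list medians ran from -2.86 to 3.26 log2 units on a wider axis.

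Genes whose profile over the 3 libraries lay closest to each isoform were named by Euclidean distance between centred log2 CPM values, among 8277 genes of at least 10 CPM. They were Slc20a1 (0.0038) and Znrf2 (0.0065) for Prkcq, Khnyn (0.0135) and Dock9 (0.0159) for Prkch, and Sfxn2 (0.0069) and Synrg (0.0077) for Prkcb. For Prkcd they were Tmem181b-ps (0.0076) and Pwp2 (0.0142), for Prkca Tef (0.0043) and St6gal1 (0.0065), for Prkce Tmco4 (0.0069) and Rpap2 (0.0082), and for Prkci Kpna1 (0.0055) and Rpl9 (0.0074). With 3 libraries many genes share a profile, and from 103 (Prkcd) to 641 (Prkca) of the genes lay within a distance of 0.1.

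Upstream of the family, the phospholipases C make diacylglycerol. Of 14 genes, 9 (64.3%) lay above 1 CPM, 4 (28.6%) above 50 CPM and 10 (71.4%) below it, near the 68.6%, 19.9% and 66.7% of all genes tested, which are also the shares to read the next lists against. The median was 1.75 CPM per kilobase against 5.50 for all genes tested. Plcg1, the phospholipase of the T cell receptor, had 211, 325 and 343 CPM in replicates 1, 2 and 3 (66.1 ± 16.2 CPM per kilobase). Plcg2, the substrate of BTK in B cells, was read at 69.2, 116 and 62.7 CPM (19.2 ± 6.72 CPM per kilobase). Plcl2, a catalytically inactive relative, had 41.2 ± 6.10 CPM per kilobase, and Plch1 (0.381 ± 0.224) and Plcd1 (0.373 ± 0.280) were lowest. Plcg1 was higher than Plcg2 in each of the 3 libraries.

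Diacylglycerol kinases remove the signal by turning diacylglycerol into phosphatidic acid. Of 10 genes, 8 lay above 1 CPM, 3 (30.0%) above 50 CPM and 7 (70.0%) below it, with a median of 5.49 CPM per kilobase. Dgka, the alpha kinase that dampens T cell receptor signals, stood at 979, 1305 and 1597 CPM in replicates 1, 2 and 3. Per kilobase it had 460 ± 110 CPM, above Prkcq in every library. Dgkz, its zeta relative in T cells, had 96.4 ± 20.7 CPM per kilobase, while Dgkb (0.187 ± 0.269) and Dgkk (0.124 ± 0.188) were lowest.

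Diacylglycerol also binds other proteins with C1 domains. Of 10 such genes, 8 lay above 1 CPM, 5 (50%) above 50 CPM and 4 (40.0%) below it, with a median of 15.04 CPM per kilobase. Rasgrp2 (94.8 ± 24.8) and Rasgrp1 (82.0 ± 2.09), which activate small GTPases of the RAS and RAP kind, led in CPM per kilobase. Rasgrp1, the T cell form, was even between libraries, with 410, 415 and 431 CPM. Prkd2, a protein kinase D and a target of protein kinase C, had 174, 306 and 268 CPM, highest in replicate 2. Chn1 (0.313 ± 0.301 CPM per kilobase) and Prkd1 (0.103 ± 0.178) were lowest, and Prkd1 had counts in replicate 1 alone.

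Downstream of protein kinase C theta and beta, a complex that holds BCL10 and MALT1 activates the IKK kinases. Of 12 genes for such complexes and their targets, 11 lay above 1 CPM, 8 (66.7%) above 50 CPM and 4 (33.3%) below it, with a median of 21.4 CPM per kilobase. Malt1, the protease of the complex, had 199, 283 and 293 CPM in replicates 1, 2 and 3 (51.5 ± 10.3 CPM per kilobase). Ikbkb, which encodes an IKK kinase, had 63.01 ± 19.8 CPM per kilobase. Bcl10 was even, with 33.0, 36.7 and 37.0 CPM (20.2 ± 1.28 CPM per kilobase). Card9, an adaptor of myeloid cells and a target of protein kinase C delta, had 9.40, 20.97 and 10.6 CPM (8.47 ± 3.95 CPM per kilobase), highest in replicate 2 like Prkcd. Card10 (0.860 ± 0.155) and Card14 (0.413 ± 0.522) were lowest per kilobase.

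Partners of the atypical isoforms were spread much like all genes tested in these calls. Of 12 genes, 8 (66.7%) lay above 1 CPM, 3 (25.0%) above 50 CPM and 8 (66.7%) below it, with a median of 1.93 CPM per kilobase. Cdc42 (78.6 ± 1.78) and Sqstm1 (59.4 ± 3.99), which encode a small GTPase and a scaffold of many cell types, led the list in CPM per kilobase. The polarity scaffold genes Pard3 (0.244 ± 0.280) and Pard3b (0.378 ± 0.330) were lowest.

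In a list for maturation and turnover of the kinases, all 12 genes lay above 1 CPM, 7 (58.3%) above 50 CPM and 4 (33.3%) below it (median 20.4 CPM per kilobase). The chaperone genes Hsp90ab1 (580 ± 121) and Cdc37 (99.5 ± 3.01) were highest in CPM per kilobase, and the phosphatase genes Phlpp1 (4.24 ± 0.582) and Phlpp2 (2.77 ± 0.844), which remove activating phosphates, were lowest. Among 10 measured substrates and anchors, all 10 lay above 1 CPM, 4 (40.0%) above 50 CPM and 4 (40.0%) below it (median 16.4 CPM per kilobase). Msn (374 ± 34.9) and Lcp1 (185 ± 21.3), which encode actin-binding proteins, were highest in CPM per kilobase, and Nrgn (5.48 ± 3.40) and Akap12 (3.71 ± 1.11) lowest. Among 10 related kinases, 8 lay above 1 CPM, 6 (60.0%) above 50 CPM and 2 (20%) below it (median 21.1 CPM per kilobase). Rps6ka1, a ribosomal S6 kinase, had 50.02 ± 11.4 CPM per kilobase, and Pkn3 was lowest (0.435 ± 0.123).

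**Figure D4:**
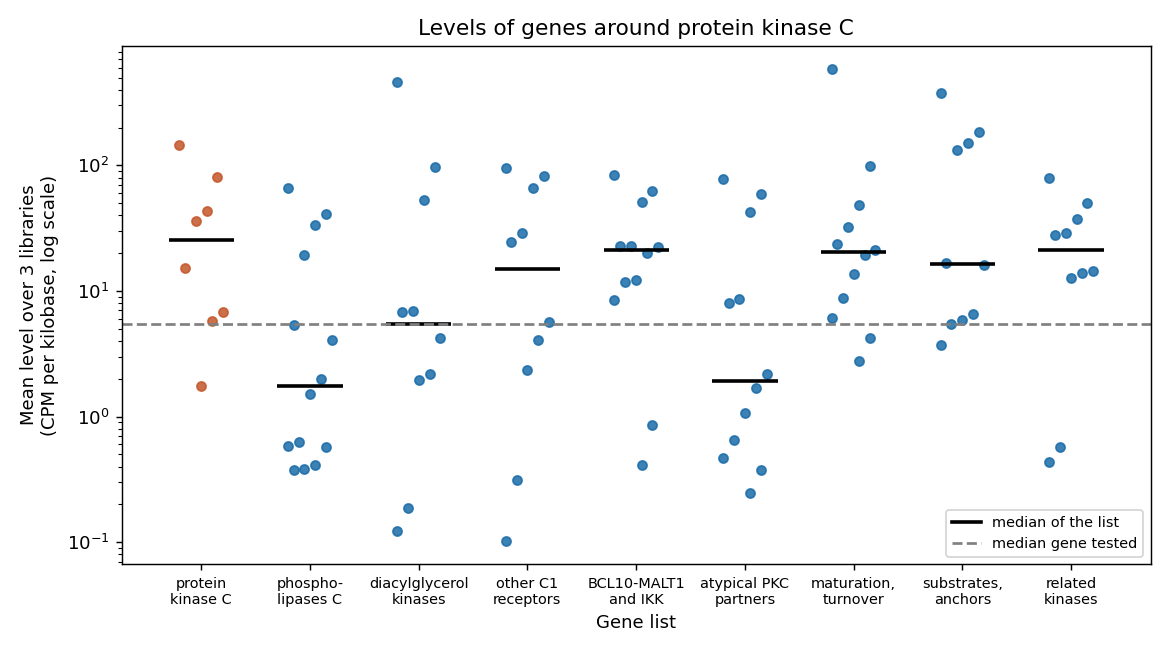
Mean level of each gene over the 3 libraries, in CPM per kilobase on a log axis, for the 8 protein kinase C genes and 8 lists of related genes, with black bars for list medians and a dashed line for the median gene tested. The protein kinase C median was 25.5 CPM per kilobase, and the phospholipases C and the partners of atypical isoforms had medians below the dashed line (1.75 and 1.93).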

How the data were processed

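Read counts per gene were deposited by the authors as whole numbers for 3 libraries, with a gene length in bases. Per the submitters' processing notes, the build was mm10 and the tools included featureCounts, STAR 2.75, bcl2fastq and DESeq2 1.18.1; their roles are not stated. The annotation, strand setting and treatment of multiply mapped reads are not stated in the sources used here, so reads of overlapping antisense genes cannot be told apart. The kit captures total RNA. The members and gene lists were chosen with earlier results of these data known. Of 221 list genes, 217 were measured; Rack1, Gap43, Sdpr and Cavin3 were not analysed here.

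CPM used TMM factors of 1.04, 1.01 and 0.950 (edgeR 4.0.16). Genes with a summed count of at least 10 were tested, 15490 in all, with an intercept-only design, the reference in the offsets, the quasi-likelihood F statistic and Benjamini and Hochberg's adjustment (threshold 0.05). A count of 0 allows up to 3 counts (0.317, 0.214 and 0.228 CPM in replicates 1, 2 and 3), for counting error only. Within-library differences used 0.5 counts as a pseudocount. Coordinates are RefSeq GRCm38.p6 (mm10) gene spans, matched by Entrez identifier; promoter windows of 6 members were in the RefSeq table. Named genes were all members, the 2 highest and 2 lowest of each pathway list per kilobase, further signalling genes, and the 2 nearest profiles per member of at least 10 CPM; Kit, Ly6c2, Itgax, Cd34 and the genes overlapping members were added after their values were seen. Some genes under this rule are not reported here.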

Additional observations from a re-analysis of the deposited data

How the results depend on the processing

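The tests of the 8 members against 1 CPM and 50 CPM gave the same calls with size factors of DESeq2, total counts, no filter, edgeR's filterByExpr, robust empirical Bayes, the DESeq2 Wald test, limma and without each replicate. Against 10 CPM per kilobase they also did, except that Prkca and Prkce were lost without replicate 3. Over all genes, those below 50 CPM numbered 10336, but 6202 with filterByExpr, which tests fewer genes, and from 5513 to 10588 when 1 replicate was left out. Those below 10 CPM per kilobase numbered 5795, but 3737 with filterByExpr and from 2249 to 5885 when 1 replicate was left out. The cause of the drop without replicate 3 was not tested. The median ratio of the highest to the lowest library over members was 1.63, against 1.45 over genes with a mean of at least 5 CPM. With 1 replicate left out the members' median was from 1.19 to 1.57. A ratio over fewer libraries cannot be larger, so these lower values say nothing on robustness. Prkch minus Prkcb reversed to -0.54 without length scaling and -0.52 with GENCODE lengths, an alternative chosen after seeing the data, and Prkcd minus Prkca reversed to -0.41 without length scaling. No paired analysis was possible because the labels give 1 group. The depth of 79 to 127 counts limits the precision of Prkcz.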

Other observations

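Marker lists of other cell types were also summed in each library. CD8 genes gave 26.8, 947 and 258 CPM in replicates 1, 2 and 3, and the CD4 gene gave 482, 167 and 470 CPM. Dendritic cell genes of type 1 gave 336, 271 and 171 CPM, plasmacytoid ones 179, 169 and 125 CPM, and stem and progenitor genes 125, 235 and 149 CPM. Platelet genes gave 194, 107 and 170 CPM, endothelial genes 201, 157 and 198 CPM, and mast cell and basophil genes 11.3, 8.34 and 33.0 CPM. Stromal genes gave 19.8, 2.28 and 4.18 CPM, and melanoma genes 9.19, 0.571 and 3.04 CPM, with 5 of 6 melanoma genes at 0 in replicate 2. Their part in the levels of the protein kinase C genes was not tested.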
